A study of Homo sapiens with 12 samples.

Results

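The genes described here are 40 genes of the actin cytoskeleton, taken by gene symbol from the deposited mRNA table of 19659 genes. They cover the 2 cytoplasmic actins, proteins that bind actin monomers, the Arp2/3 complex, nucleation and elongation factors, capping and severing proteins, crosslinkers, tropomyosins, non-muscle myosin II, the GTPases RHOA and CDC42 and linkers to the membrane and to adhesions. All 40 symbols were found, and 38 had a mean of at least 0.5 FPKM (fragment counts divided by transcript length and by library size) and were tested. The remaining members were TPM2, at 0.437 ± 0.170 FPKM in controls and 0.361 ± 0.172 with DMAG, and MYL9, a smooth muscle myosin light chain listed at 0 in 4 of the 6 libraries and at most 0.0196 FPKM.

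Actin monomers (G-actin) assemble into polarised filaments (F-actin) that shape the cell cortex, drive movement and carry tension. Profilin and thymosins hold the monomer pool, the Arp2/3 complex starts branched filaments under WASP and WAVE proteins, and formins start straight ones. Tropomyosins coat filaments, alpha-actinins, filamin and plastin tie them together, and myosin II pulls on them. Blood cells depend on this system for adhesion, phagocytosis and, in megakaryocytes, for the extension of proplatelets. Several of these genes are known targets of serum response factor (SRF), whose coactivator MRTF is released when monomeric actin is used up.

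RNA-Seq libraries were made from cells labelled HEL, an established human erythroleukaemia line, in 2 groups of 3. The treated cells had 40 µg/ml DMAG, a methylated ellagic acid glucoside from a burnet plant, for 3 days. The control cells grew in the same serum-containing medium, with no dose or day recorded, and whether they had a vehicle is not given in the sources used here. All values are from 1 cell line, and nothing in the labels says that each library had its own culture. The p-values therefore cover the spread among these libraries alone, which may be technical. In such bulk RNA, fewer cells of a type and less RNA per cell cannot be told apart.

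GATA1 and ITGA2B, markers of the labelled line, were near 0, at most 0.142 and 0.330 FPKM. Of 14 erythroid markers, 6 reached the level tested. TFRC was lower with DMAG (152.9 to 102.5 FPKM, group means) and EPOR higher (3.71 to 4.49). HBB, HBA1, HBA2 and ALAS2 reached that level through DMAG replicate 3 alone. Of 10 granulocyte markers, 8 reached the level tested. Of these 8, 2 were higher with DMAG (CLC 320 to 523 and AZU1 79.4 to 100.2 FPKM, group means) and 5 lower (PRTN3 916 to 227, MPO 1089.5 to 815, EPX 79.6 to 39.1, CTSG 32.1 to 16.0 and ELANE 17.2 to 6.92). Of 12 megakaryocyte and platelet markers, 11 stayed below 0.5 FPKM in every library, and the sum over the list was 1.15 to 1.32 FPKM in control libraries and 1.15 to 1.81 in DMAG libraries. Of 12 monocyte and macrophage markers, 3 of 4 tested were higher with DMAG and none lower, and the sum over the list was 236 to 249 FPKM in control libraries and 583 to 687 in DMAG libraries. LYZ, S100A8 and S100A9 made up nearly all of that sum, while CD14 was at most 0.503 and CSF1R at most 0.225 FPKM. DMAG replicate 3 held erythroid RNA, with HBB at 1366.8 FPKM against at most 0.0731 in the other 5 libraries, and without it 14 members were higher and 3 lower. Over all genes tested, 22.4% were higher with DMAG and 26.1% lower, and each marker list holds few genes. The part of these marker genes in the values below was not tested. Compared by low-level genes with 1 transcript, the depth of the other 5 libraries was 0.974 to 1.104 times that of control replicate 1, and the absolute depth is unknown.

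With DMAG, TPM4, FLNA and ZYX showed the largest called differences, 2.75-, 1.76- and 1.46-fold higher, and the actin genes themselves did not pass the test. Of the 38 members tested, 14 were higher with DMAG, 5 were lower and 19 did not pass (limma on log2(FPKM + 1), Benjamini-Hochberg adjusted p under 0.05 over 10394 genes). Over all genes tested, 22.4% were called higher and 26.1% lower, against 36.8% and 13.2% of the members. The counts by role below cover few genes each, and no role was tested as a set. The groups did not overlap for 24 members, 15 with DMAG above control and 9 below, which is 39.5% and 23.7% of the members against 27.9% and 31.6% of all genes. The median log2 change was 0.052 over the members and -0.011 over all genes. With the most abundant transcript of each gene alone, the members' median lay 0.217 above that of all genes, against 0.063 here. Of the 19 calls, 6 were under 0.2 in size on the log2 scale.

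**Figure D1:**
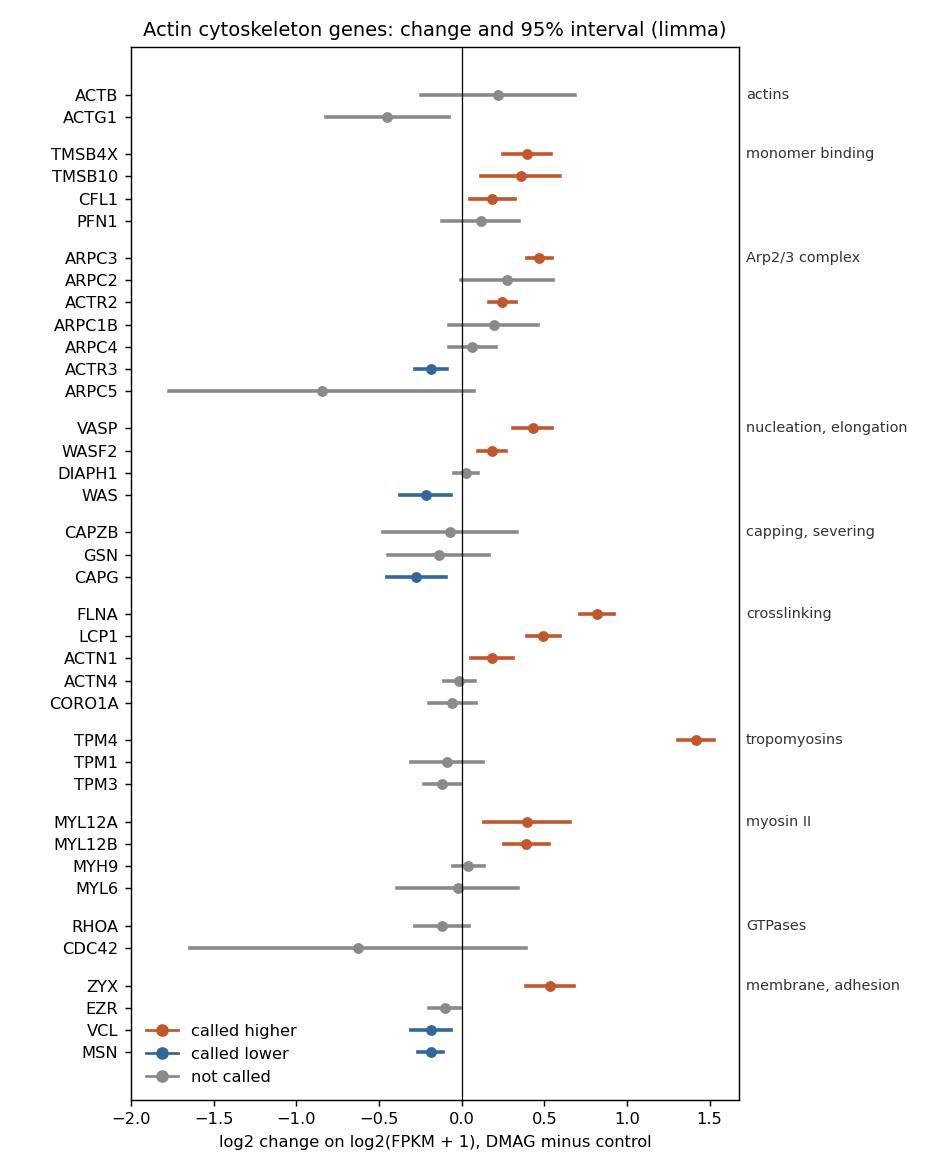
Change of each of the 38 members tested on the log2(FPKM + 1) scale, DMAG minus control, with its 95% interval from limma (3 libraries per group), grouped by role. TPM4 (1.42) and FLNA (0.82) lie farthest to the right, and the intervals of ARPC5 and CDC42 are the widest.

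The scaling of the libraries moved this split. The total of all mRNA values was 354250 ± 4715 FPKM for control libraries and 330240 ± 2379 for DMAG libraries. With libraries rescaled to the same total (TPM) the median of all genes moved from -0.011 to 0.091, and 30.7% of all genes were higher and 17.0% lower. On that scale 17 members were higher and 0 lower (limma; 2 were lower at an unadjusted p under 0.05). With TMM factors, which scale libraries after trimming the genes with extreme ratios, the median of all genes was -0.0076 and the members' counts were again 14 and 5. The members' median lay 0.049 to 0.064 above that of all genes under these scalings. The 10 members called higher under the deposited scaling and in all of the other 17 settings tried were TPM4, FLNA, ZYX, LCP1, ARPC3, VASP, TMSB4X, MYL12B, ACTR2 and WASF2. ACTR3 and MSN were called lower in every setting but the rescaling to TPM.

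**Figure D2:**
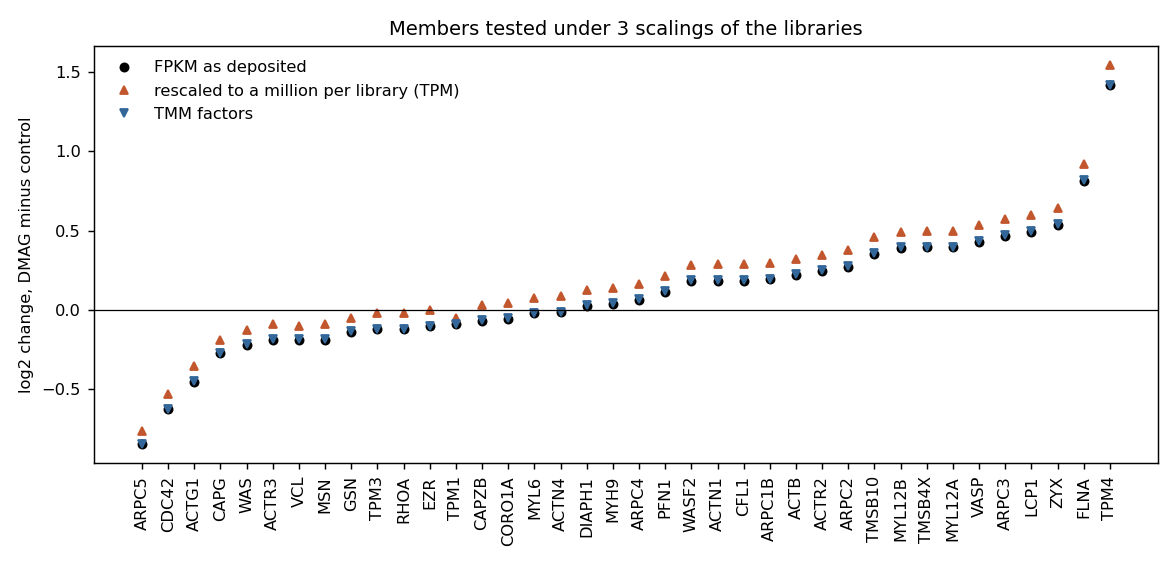
Log2 change of the 38 members tested (DMAG minus control), ordered by the value on deposited FPKM (black circles), with the values after rescaling to TPM (orange) and with TMM factors (blue). The TPM values lie above the others throughout, so that CAPZB, CORO1A, MYL6 and ACTN4 are below 0 on the deposited scale and above 0 with TPM, while TMM values lie close to the deposited ones.

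Since SRF acts through a DNA element named the CArG box, promoter windows of 300 bases (250 before and 50 after the start site, RefSeq, GRCh38.p14) were searched for it on both strands, a search that its palindromic form makes the same on either strand. Windows were found for 36 of the 40 members, and not for ACTB, WASF2, ARPC1B and MYL9. A CArG box lay in a window of 4 of these 36 genes (11.1%), against 131 of 8295 tested genes with a window (1.58%). A gene can have more than 1 window. Counted by window, the box lay in 4 of 61 for the members (6.56%) and 136 of 11959 for the tested genes (1.14%). Over all windows of this length the share was 1.29%. The stretches with the box are shown because they include the promoters of the 2 members with the largest rise. The box is in capitals, with 10 bases on each side in lower case, each in the direction of transcription of its gene.
TPM4, chr19:16067355-16067384, + strand: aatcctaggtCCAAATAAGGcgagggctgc
FLNA, chrX:154374709-154374738, - strand: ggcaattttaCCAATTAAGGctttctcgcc
ACTG1, chr17:81512874-81512903, - strand: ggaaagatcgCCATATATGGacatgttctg
ACTN1, chr14:68977718-68977747, - strand: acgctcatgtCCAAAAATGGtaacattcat

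The box began 173 bases before the start site in TPM4, 94 in FLNA and 94 in ACTG1. In ACTN1 it began 171 bases before an internal start site, since the stretch lies within the span of the gene (chr14:68874128-68979302). The mRNA of these genes did not move as 1 group: TPM4, FLNA and ACTN1 were higher with DMAG and ACTG1 did not pass, with a log2 change of -0.45. Among the 131 tested genes with a box, 22.1% were higher and 26.0% lower, next to 22.3% and 26.1% of the tested genes with a window. SRF itself had 19.4 ± 0.950 and 18.7 ± 0.403 FPKM (log2 change -0.05, adjusted p = 0.42).

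Tropomyosins are coiled-coil dimers that lie along the filament and decide which other proteins can bind it. TPM4 (ENSG00000167460, chr19:16067538-16103002) had 19.8, 18.2 and 19.0 FPKM in controls and 53.7, 53.0 and 50.6 with DMAG, the largest difference among the members (log2 change 1.42, SE 0.045, limma adjusted p = 2.1e-05). Every DMAG library lay far above every control library. TPM3 was instead the most abundant tropomyosin in controls, at 73.8 ± 3.78 FPKM, and was at 67.7 ± 1.20 with DMAG (adjusted p = 0.066; 95% interval of the log2 change -0.23 to -0.01). TPM1 was low in both groups, at 1.22 ± 0.0950 and 1.09 ± 0.198 FPKM (adjusted p = 0.45).

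The sum of the 4 tropomyosin genes went from 94.5 ± 4.21 to 122 ± 2.59 FPKM. Within it, TPM4 made up 20.0%, 19.6% and 20.9% in the control libraries and 43.2%, 43.6% and 42.5% with DMAG, and TPM3 78.1% ± 0.631 and 55.7% ± 0.505. The groups did not overlap in either share. An exact permutation test of 3 against 3 libraries (two-sided) gave p = 0.1 for the share of TPM4, which is the smallest this design allows.

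**Figure D3:**
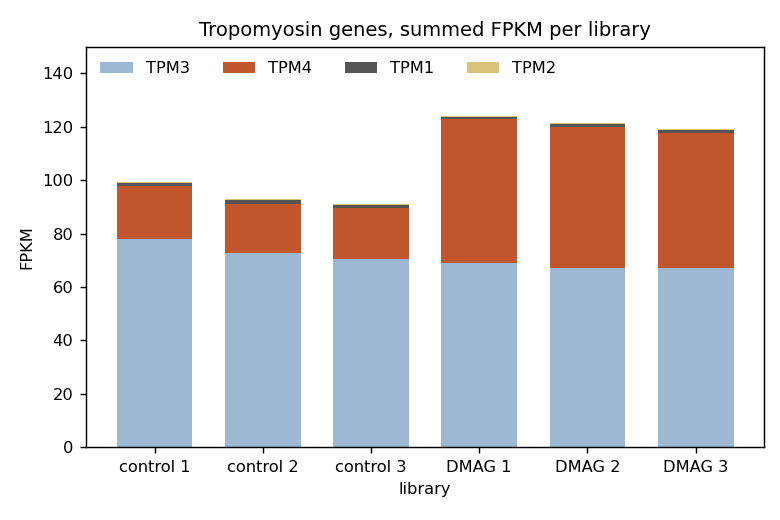
Stacked FPKM of TPM3, TPM4, TPM1 and TPM2 in each of the 6 libraries. The TPM4 segment is 18.2 to 19.8 FPKM high in the controls and 50.6 to 53.7 with DMAG, on a TPM3 segment of 67.0 to 77.9.

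Among proteins that tie filaments together, 3 of 5 were higher with DMAG and none was lower, against 22.4% and 26.1% of all genes. FLNA (ENSG00000196924, chrX:154348531-154374634), filamin A, which links filaments into a loose net and to integrins, was at 162, 155 and 149 FPKM in controls and at 280.0, 274 and 269 with DMAG (log2 change 0.82, SE 0.042, limma adjusted p = 6.3e-05). Its DMAG values were all above 268 FPKM and its control values were 162 or lower. LCP1, the leukocyte plastin that bundles filaments, was at 298, 298 and 317 FPKM in controls and 439, 423 and 424 with DMAG (1.41-fold, adjusted p = 2.6e-04). ACTN1, an alpha-actinin, went from 40.6 ± 2.17 to 46.3 ± 1.94 FPKM (adjusted p = 0.028), and did not pass when control replicate 1 or 3 or DMAG replicate 1 or 2 was left out (adjusted p 0.070 to 0.084). ACTN1 was called in 12 of the 18 settings, the main one included. Its paralogue ACTN4 was at 71.9 ± 1.84 and 71.2 ± 2.18 FPKM (95% interval of the log2 change -0.11 to 0.08). CORO1A, the coronin of leukocytes, was at 280 ± 13.0 and 269 ± 16.0 FPKM (adjusted p = 0.46).

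The cytoplasmic actins were the first and the third most abundant members in controls. ACTB was at 1539.7, 2364.5 and 2274 FPKM in controls and at 2569.5, 2581 and 1972 with DMAG. The groups overlapped, since control replicate 1 and DMAG replicate 3 each lay below the other libraries of their group (log2 change 0.22, 95% interval -0.25 to 0.69, adjusted p = 0.39; 0.047 without these 2 libraries, a choice made after seeing them). ACTG1 was at 847, 733 and 565 FPKM in controls and 464, 552 and 536 with DMAG. All 3 DMAG values were below all 3 control values, and the difference did not pass (log2 change -0.45, adjusted p = 0.051; 0.0088 without control replicate 3 and 0.079 to 0.14 without any other library). Together the pair was at 2774.8 ± 360 and 2892 ± 336 FPKM, and ACTB made up 73.6% ± 8.13 and 81.9% ± 3.07 of it (exact permutation p = 0.2, two-sided). The coding parts of these genes are nearly identical and the genome holds many copies of them, so how reads were split between them is uncertain. The split over ACTG1 transcripts varied too, with ENST00000575842 at 441, 497 and 153 FPKM in controls and 23.1, 199 and 226 with DMAG.

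Of the 4 proteins that act on actin monomers, 3 were higher, against 22.4% of all genes. TMSB4X, thymosin beta-4, which holds monomers in reserve, was the second most abundant member in controls, at 1514, 1396.0 and 1329 FPKM, and was at 1871, 1839 and 1854 with DMAG (1.31-fold, limma adjusted p = 0.0025). The groups were well apart and the DMAG libraries lay within a narrow band. Its relative TMSB10 went from 111 ± 14.5 to 142 ± 7.03 FPKM (adjusted p = 0.026, and 0.068 and 0.077 without DMAG replicate 1 and 2). TMSB10 was called in 15 of the 18 settings, the main one included. CFL1, cofilin, which severs old filaments, was 1.14-fold higher (344 ± 16.9 to 392 ± 20.3 FPKM, adjusted p = 0.035). Leaving out control replicate 1 or 3 or DMAG replicate 1 or 2 ended this call (adjusted p 0.079 to 0.099), as did a replicate block (0.079). CFL1 was called in 12 of the 18 settings. PFN1, profilin, which loads monomers onto growing ends, was at 238 ± 29.1 and 257 ± 17.5 FPKM (adjusted p = 0.37).

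The Arp2/3 complex grows a branch from the side of a filament. Its 7 subunits among the members went different ways: 2 were higher, 1 was lower and 4 did not pass. Over all genes tested, 22.4% were higher and 26.1% lower, and 7 genes are too few to set apart from these shares. ARPC3 was at 99.5, 103 and 100.05 FPKM in controls and 141, 141 and 138 with DMAG (1.39-fold, log2 change 0.47, SE 0.031, limma adjusted p = 1.3e-04). ACTR2, the actin-related protein Arp2, was at 227, 226 and 226 FPKM in controls and 277, 268 and 262 with DMAG (1.19-fold, adjusted p = 0.0018). Its partner ACTR3, the Arp3 protein, was instead at 87.9, 87.5 and 87.2 FPKM in controls and 80.2, 76.6 and 73.7 with DMAG (1.14-fold lower, adjusted p = 0.0092; 0.14 after rescaling to TPM). For each of these 3 subunits the control libraries lay within a few percent of each other and no DMAG library fell among them.

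The other subunits spread more between libraries, ARPC4 only with DMAG and ARPC5 only in controls. ARPC2 went from 249 ± 23.8 to 302 ± 42.0 FPKM with no overlap of the groups, but did not pass (adjusted p = 0.093). ARPC4 was at 101 ± 1.04 and 106 ± 8.40, and ARPC1B at 84.9 ± 9.26 and 97.3 ± 11.5 FPKM, both without a call. ARPC5 was at 59.8, 63.9 and 22.5 FPKM in controls and at 23.7, 23.6 and 25.2 with DMAG, so that control replicate 3 sat with the DMAG libraries (log2 change -0.85, 95% interval -1.77 to 0.08, adjusted p = 0.11). Without control replicate 3 the log2 change was -1.32 (adjusted p = 3.6e-04), and with the most abundant transcript alone it was 0.72 (adjusted p = 0.13).

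Among factors that start or lengthen filaments, VASP and WASF2 were higher, WAS was lower and DIAPH1 did not pass. VASP, which shields growing ends from capping, was at 51.6, 54.2 and 54.5 FPKM in controls and 70.7, 76.7 and 69.5 with DMAG (1.35-fold, limma adjusted p = 8.1e-04). WASF2, the WAVE protein that turns on Arp2/3 under Rac, went from 46.9 ± 0.521 to 53.3 ± 1.42 FPKM (1.14-fold, adjusted p = 0.0057). WAS, its counterpart under CDC42 in blood cells, was at 16.3, 18.4 and 17.9 FPKM in controls and 14.7, 15.8 and 14.2 with DMAG (1.17-fold lower, adjusted p = 0.031). The groups of WAS were close, and the call was lost without control replicate 2 or 3, without DMAG replicate 1 or 3 (adjusted p 0.083 to 0.092) and after rescaling to TPM (0.13). DIAPH1, a formin, was at 111 ± 2.14 and 114 ± 0.336 FPKM (95% interval of the log2 change -0.05 to 0.10).

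Of the capping and severing proteins, CAPG was lower and none was higher. CAPG, which caps filament ends in macrophage-type cells, was at 15.6, 16.6 and 15.3 FPKM in controls and 11.6, 13.4 and 13.8 with DMAG (1.22-fold lower, limma adjusted p = 0.022). Its call was lost without control replicate 1 or 2 (adjusted p = 0.050 and 0.071) and after rescaling to TPM (0.080). CAPG was called in 14 of the 18 settings, the main one included. CAPZB, the beta subunit of capping protein, was at 89.3 ± 12.7 and 85.6 ± 16.4 FPKM, and GSN, gelsolin, which cuts and caps filaments, at 9.62 ± 1.14 and 8.68 ± 1.41 FPKM.

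Non-muscle myosin II has 2 heavy chains, 2 essential and 2 regulatory light chains. MYH9, the heavy chain of its A form, was at 142 ± 3.46 and 146 ± 4.88 FPKM (95% interval of the log2 change -0.06 to 0.13), and the essential light chain MYL6 at 99.3 ± 13.2 and 98.1 ± 16.6 FPKM. Both regulatory light chains of non-muscle type were higher. MYL12B was at 129, 120 and 121 FPKM in controls and 173, 159 and 153 with DMAG (1.31-fold, limma adjusted p = 0.0020). MYL12A was at 130, 115 and 112 FPKM in controls and 152, 181 and 139 with DMAG (1.32-fold, adjusted p = 0.024). It did not pass without control replicate 2 or 3 or DMAG replicate 1 (adjusted p 0.054 to 0.074), nor by its most abundant transcript alone (0.78). No DMAG library overlapped the controls for either gene. These genes are neighbours on chromosome 18 with nearly identical proteins, so reads shared between them could have been counted for either.

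RHOA and CDC42, GTPases that act as switches on most of the proteins above, did not pass. RHOA, which acts on formins and myosin II, was at 127 ± 9.17 and 117 ± 7.21 FPKM (log2 change -0.12, 95% interval -0.29 to 0.04). CDC42 was at 171, 59.2 and 55.0 FPKM in controls and 54.7, 54.3 and 50.2 with DMAG (log2 change -0.63, adjusted p = 0.26). Control replicate 1 alone set that size: without it the log2 change was -0.10 (adjusted p = 0.20).

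Of the linkers to the membrane and to adhesions, ZYX was higher and MSN and VCL were lower. ZYX (ENSG00000159840, chr7:143381345-143391111), zyxin, a sensor of tension at adhesions and stress fibres that recruits VASP, was at 50.1, 54.3 and 54.2 FPKM in controls and 82.8, 76.0 and 72.5 with DMAG (log2 change 0.54, SE 0.060, limma adjusted p = 7.7e-04). MSN, moesin, which ties filaments to the membrane, was at 307, 299.6 and 307 FPKM in controls and 266, 270.2 and 267 with DMAG (1.14-fold lower, adjusted p = 0.0036; 0.083 after rescaling to TPM). For both genes the groups were well separated, in opposite directions. VCL, vinculin, which joins talin to actin, was at 13.1, 12.5 and 12.5 FPKM in controls and 10.9, 11.6 and 10.7 with DMAG (1.15-fold lower, adjusted p = 0.023). The call of VCL ended without control replicate 1 or 2 or DMAG replicate 1 or 3 (adjusted p 0.051 to 0.067), with a replicate block (0.058) and after rescaling to TPM (0.20). VCL was called in 11 of the 18 settings, the main one included. EZR, ezrin, a relative of moesin, was at 101 ± 2.32 and 93.8 ± 3.26 FPKM with no overlap and no call (adjusted p = 0.069).

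**Figure D4:**
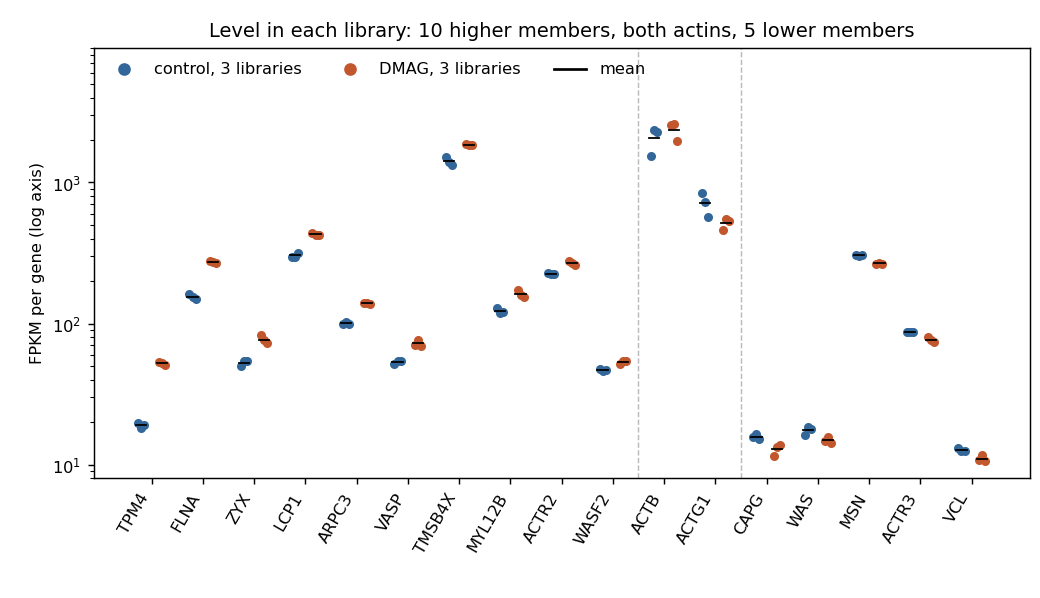
FPKM in each library (log axis) for the 10 members called higher in every setting, both cytoplasmic actins and the 5 members called lower, with controls in blue, DMAG in orange and the group mean as a line. The groups are apart for the 10 and the 5, and overlap for ACTB.

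The members were abundant genes. Their median level in controls was 101 FPKM, against 13.4 FPKM over all genes tested. The 40 together made up 2.33% ± 0.0697 of all mRNA FPKM in controls and 2.82% ± 0.130 with DMAG (exact permutation p = 0.1, the smallest the design allows). A few abundant members weigh most in this share: TMSB4X went from 1413 to 1854 FPKM, ACTB, without a call, from 2060 to 2374 and ACTG1, also without a call, from 715 to 517. The total of all mRNA FPKM was also lower with DMAG (354250 and 330240). In controls the order of levels began with ACTB, TMSB4X, ACTG1, CFL1, MSN, LCP1, CORO1A, ARPC2, PFN1 and ACTR2. The control libraries of ACTB, TMSB4X and ACTG1 did not overlap, while from MSN down to ACTR2 each gene lay within 2 SD of the next. MSN and LCP1 were at 305 ± 4.31 and 304 ± 10.9 FPKM and changed places with DMAG, to 267 ± 2.43 and 429 ± 9.20. At the low end stood GSN, CAPG, VCL, WAS and TPM4 with 9.62 to 19.0 FPKM, and TPM1 below these.

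The spread between libraries was small for most members, with a median coefficient of variation of 4.79% in controls and 5.08% with DMAG. It was above 20% in controls for CDC42 (69.0%), ARPC5 (46.8%) and ACTB (22.0%), and for none of the members tested with DMAG. These spreads were looked into by transcript after their values were seen. The table listed 257 transcripts for the 40 genes, and in 24 of the 38 tested members the most abundant transcript held at least 80% of the FPKM in every library.

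CDC42 in control replicate 1 had 109 FPKM for ENST00000344548, against 11.1 to 14.7 in the other 5 libraries, while ENST00000315554 was at 61.0 FPKM there and at 38.7 to 44.0 elsewhere. ARPC5 had 46.4 and 54.5 FPKM for ENST00000294742 in control replicates 1 and 2, and that transcript was listed at 0 in the other 4 libraries, where ENST00000359856 held 22.5 to 25.1 FPKM. DIAPH1 had nearly the same total in all 6 libraries, yet control replicate 1 had 102 FPKM on ENST00000253811 and the other 5 had 107 to 111 on ENST00000389054. In CDC42 both transcripts were higher in control replicate 1, whereas in ARPC5 and DIAPH1 the leading transcript differed between libraries. The high TPM4 value, by contrast, came from 1 transcript in all libraries: ENST00000643579 was at 17.3, 16.3 and 17.2 FPKM in controls and 48.9, 48.5 and 46.3 with DMAG. FLNA likewise rested on ENST00000369856, at 148 ± 5.16 and 263 ± 5.23 FPKM. In ZYX both main transcripts varied, and ENST00000354434 was listed at 0 in DMAG replicate 1 and at 16.5 to 25.2 FPKM elsewhere.

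**Figure D5:**
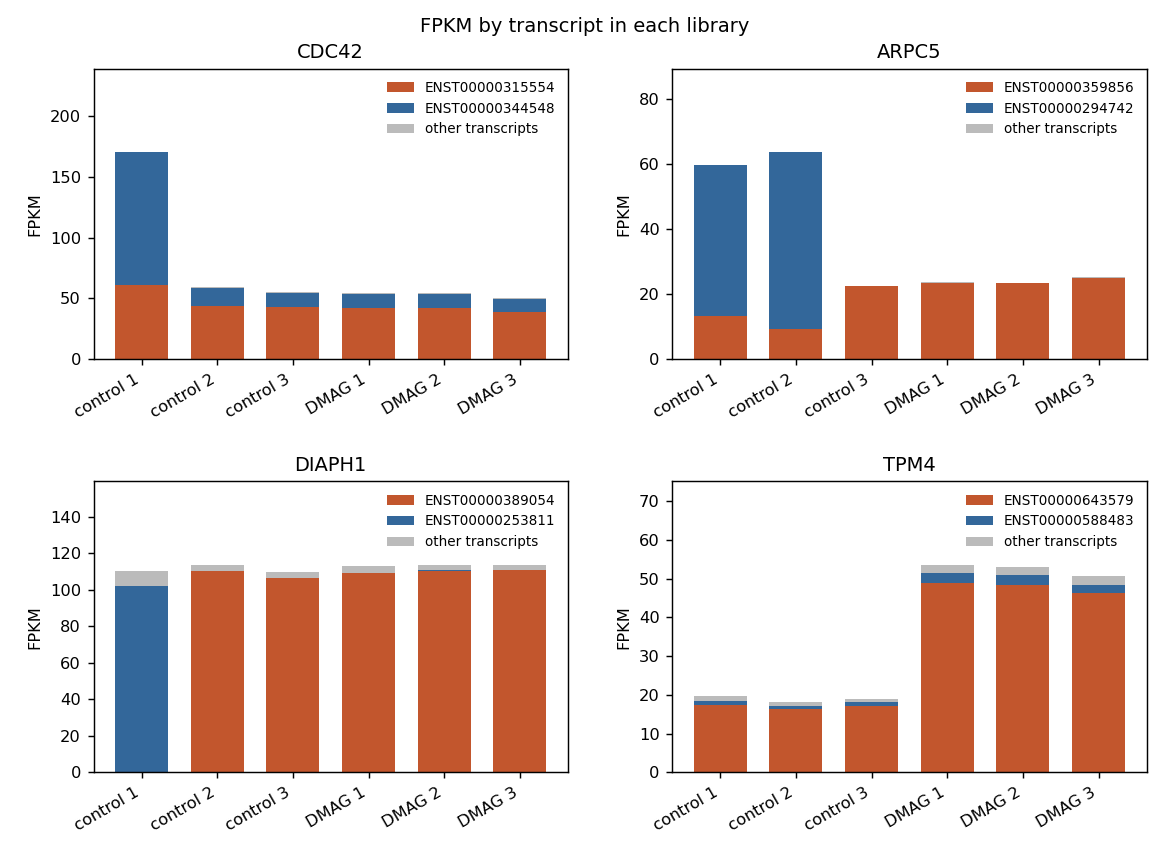
FPKM per transcript, stacked, in each of the 6 libraries for CDC42, ARPC5, DIAPH1 and TPM4, with the 2 most abundant transcripts coloured and the others in grey. The tall bar of CDC42 is control replicate 1, ARPC5 has the transcript in blue in control replicates 1 and 2, DIAPH1 swaps transcript at the same height, and TPM4 keeps 1 main transcript.

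Other genes of the actin system were taken from lists of related factors. Of 164 such genes tested, 54 were higher (32.9%) and 34 lower (20.7%), against 22.4% and 26.1% of all genes, with a median log2 change of 0.04. The 8 lists described next hold 125 of these genes, of which 35 were higher (28%) and 27 lower (21.6%). MYO1A and MYH3, counted there as higher, reached the level tested through their DMAG libraries alone. Several of these lists lay near the share over all genes. Among them, further monomer, severing and capping genes had 7 of 25 higher (28.0%) and 5 lower (20.0%). SSH3, a phosphatase of the slingshot family whose relatives act on cofilin, went from 1.43 ± 0.348 to 6.54 ± 0.613 FPKM, GMFG, which removes branches, from 41.0 ± 3.67 to 67.8 ± 1.85 and CAPZA1, an alpha subunit of capping protein, was 1.26-fold higher. Crosslinkers and other filament binders had 7 of 21 higher (33.3%) and 5 lower (23.8%), with SPTAN1, the alpha-spectrin of non-red cells, 1.82-fold, LASP1 1.48-fold and MARCKSL1 1.91-fold higher. Regulators and further subunits of Arp2/3 had 7 of 23 higher (30.4%) and 1 lower (4.35%). WIPF1, a partner of WAS, was 1.27-fold, the WAVE complex subunit BRK1 1.20-fold and the WASH complex subunit WASHC5 1.15-fold higher. The lower gene was the Arp2/3 subunit ARPC1A (1.14-fold lower, limma adjusted p = 0.024).

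Formins and the Ena family had 2 of 9 higher (22.2%) and 5 lower (55.6%): FMNL1, the leukocyte formin, went from 17.7 ± 0.541 to 30.6 ± 0.690 FPKM, while DIAPH2 fell 1.59-fold and FHOD1 1.33-fold. Membrane and adhesion linkers had 3 of 23 higher (13.0%) and 9 lower (39.1%), among the latter TRIP6, a relative of zyxin (1.50-fold), STK10, a kinase of ezrin and moesin (1.52-fold) and ILK, the integrin-linked kinase (1.20-fold). Myosins and their regulators had 5 of 17 higher (29.4%) and 2 lower (11.8%). MYO1A, 1 of these 5, reached the level tested through its DMAG libraries alone (0.311 ± 0.0528 FPKM in controls, 0.972 ± 0.0778 with DMAG). MYO1G fell from 69.2 ± 1.69 to 30.1 ± 0.254 FPKM (limma adjusted p = 1.1e-05) and MYO19, a mitochondrial myosin, 1.47-fold, while MYO1F, a class I myosin of leukocytes like MYO1G, rose from 47.6 ± 1.64 to 74.6 ± 2.10 FPKM.

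Of SRF and its cofactors 2 of 5 were higher and none lower, against 22.4% and 26.1% of all genes. These were ELK3 (1.58-fold) and ELK4 (1.11-fold). SRF was not called, and MRTFA was at 28.8 ± 1.43 and 30.4 ± 1.50 FPKM without a call. Of 26 muscle isoforms 24 lay below the level tested. The other 2 were higher with DMAG. ACTA2, the actin of smooth muscle, went from 1.59 ± 0.0665 to 4.32 ± 0.396 FPKM. MYH3, an embryonic muscle myosin, went from 0.400 ± 0.0252 to 0.900 ± 0.0467. It reached the level tested through its DMAG libraries alone, as its control mean was under 0.5 FPKM.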

How the data were processed

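RNA-Seq of 3 control and 3 DMAG libraries was used. The authors deposited FPKM per transcript. Tools listed in the submitters' processing notes, with no roles, are StringTie 1.3.3, HISAT2 2.0.4 and Bowtie, and the build is GRCh38. How reads were counted and how multi-mapping reads were treated is not given in the sources used here. Small RNA, lncRNA and circular RNA values were not used. The 83027 transcripts were summed to 19659 genes. Means of 0.5 FPKM or more were required. The test was limma 3.58.1 (R 4.3.3, empirical Bayes with a mean trend, no block) on log2(FPKM + 1), a scale that understates changes of low genes. TMM factors were computed from the FPKM table by the published formula and served as a scaling, with each library divided by its factor times its total. Adjusted p-values are Benjamini-Hochberg over all genes tested, called under 0.05. Values are mean ± SD, n = 3. FPKM hold no counts, so absolute depth and counting intervals are unknown.

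In data simulated from the spread of this comparison over 10394 genes, 100 genes were changed by 0.5 and 100 by 1 (log2). Of these, 62% and 92% were recovered, and 7.8% of calls were false. Far more genes were called in the real data (22.4% higher and 26.1% lower), so these rates need not hold there. The rule for naming was that every member be accounted for, with each library's value for members called lower, members called at 0.5 log2 or more and both actins, and the 3 smallest p of each related list. Values per library of other members were added after they were seen. MYO1A and ARPC1A were named outside the naming rule. Of the 9 related lists, 1 enters the total over all lists but is not reported here by itself, and neither is 1 marker. The members and lists were chosen with earlier results of these data known. Gene positions and promoter windows are RefSeq's on GRCh38.p14. Alternatives were pseudocounts, filters, scalings, no mean trend, a replicate block, the most abundant transcript and leaving out each library, plus leaving out control replicate 1 with DMAG replicate 3, chosen after seeing the data.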

Additional observations from a re-analysis of the deposited data

How the results depend on the processing

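No member called in the main comparison changed sign in the 17 other settings, and 10 of the 19 kept their call in all of them. The count of higher members, 14, was 10 to 14 without 1 library at a time. The count of lower members went from 5 to 0 after rescaling to TPM, 3 without control replicate 1 and DMAG replicate 3 together, and 2 to 7 without 1 library at a time (2 without control replicate 2, 3 without control replicate 1 or DMAG replicate 1 or 3). The members' median of 0.052 became 0.14 with TPM and 0.206 with the most abundant transcript, and was 0.023 to 0.078 without 1 library. Over the related lists, 54 higher became 80 with TPM, 36 with the most abundant transcript and 36 to 51 without 1 library, and 34 lower became 19 with TPM, 19 with the most abundant transcript and 22 to 26 without 1 library (22 without control replicate 2). Rescaling to TPM moves all genes by construction, and the cause of the other differences was not tested.

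Sign changes were found for 8 members without a call in the main comparison. With TPM these were CAPZB (0.03), ACTN4 (0.086), CORO1A (0.044) and MYL6 (0.078), and with every library set to 1 common median ACTN4 (0.004). With the most abundant transcript they were ARPC5 (0.719), CAPZB (0.323), GSN (0.016), ACTN4 (0.035) and TPM3 (0.093). With 1 library, or control replicate 1 and DMAG replicate 3, left out, the values ran from -0.265 to 0.098 for CAPZB, -0.032 to 0.01 for ACTN4, -0.131 to 0.15 for MYL6 and -0.021 to 0.207 for PFN1.

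Replicate numbers showed no clear pairing: deviations of same-numbered libraries correlated at -0.0048, 0.0426 and 0.027. Libraries numbered 2 and 3 correlated best with their own number, and those numbered 1 did not. Whether same-numbered libraries shared a culture or batch was not tested. With a replicate block 13 members were higher and 4 lower, with CFL1 and VCL lost, the lists had 42 higher and 23 lower, and the members' median was 0.052.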
